A study of Mus musculus with 2 samples.

Results

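In the dorsal cerebral wall of the E14.5 mouse embryo, 975 of 6629 p300-bound regions (14.7%) lay less than 5 kb from another p300-bound region on the same chromosome. Joined to their neighbours, these peaks formed 455 groups, of which 406 held 2 peaks, 37 held 3, 8 held 4 and 4 held 5. The grouped peaks were chosen by the gap alone, counted from the end of a peak to the start of the next, so gaps, group sizes and spans describe the selection and carry no test. The remaining 5654 peaks are called the other peaks.

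The p300 protein is a co-activator that carries a histone acetyltransferase and is recruited to enhancers by DNA-bound transcription factors. Enhancers are stretches of DNA that raise transcription of a gene from a distance, and several of them often share a target gene and a tissue. At this stage progenitors in the ventricular and subventricular zones of the dorsal cerebral wall give rise to the excitatory neurons of the neocortex, and proneural factors such as Neurog2 start their differentiation.

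The tissue came from timed pregnant Swiss Webster mice, was freed of hippocampus, cortical hem and choroid plexus, and was fixed with formaldehyde before immunoprecipitation with the C-20 antibody to p300. There was 1 p300 library. An input library, made without antibody, had no peak list here and was not analysed. Without a replicate no difference between classes of peaks below carries a test, and the intervals given cover counting error only. The peak list held positions and no read counts, so the depth behind a single peak is unknown. The labels give 1 tissue, the neocortex, which holds many cell types, and a peak list cannot tell whether neighbouring peaks were bound in the same cells.

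The tightest neighbours were separated by only a few bases. The 3 narrowest gaps are shown with 60 bases of each adjoining peak in lower case and the gap itself in capitals, read 5′ to 3′ on the plus strand of the mm9 assembly, which is a C57BL/6J sequence.
Gap of 1 base (chr7:59039022-59039142): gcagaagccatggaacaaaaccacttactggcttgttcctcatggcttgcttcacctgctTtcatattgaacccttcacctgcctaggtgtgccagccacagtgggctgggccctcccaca
Gap of 10 bases (chr13:84709891-84710020): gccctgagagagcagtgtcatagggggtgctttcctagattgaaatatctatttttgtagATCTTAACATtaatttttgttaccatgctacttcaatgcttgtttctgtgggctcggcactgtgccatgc
Gap of 14 bases (chr6:84223460-84223593): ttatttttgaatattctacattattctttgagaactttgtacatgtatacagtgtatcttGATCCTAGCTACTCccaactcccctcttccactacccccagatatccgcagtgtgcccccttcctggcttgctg
The pair with a gap of 1 base lay between Slc17a6, which encodes a vesicular glutamate transporter, and the DNA repair gene Fancf, 111 kb from the former and 75.4 kb from the latter. Its peaks were 1111 and 1453 bp wide. The gap of 10 bases separated the last peaks of a group of 3 (chr13:84704709-84712455), which were 1616 and 2495 bp wide. The gap of 14 bases lay in an intergenic pair between the muscle membrane gene Dysf and Cyp26b1, which encodes an enzyme that degrades retinoic acid, 61.6 and 297 kb away. In each of these the deposited list gave separate peaks whose called edges nearly met. Positions alone cannot tell whether binding was continuous across the gap.

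Gaps inside the groups had a median of 1820 bp (95% interval from order statistics 1666 to 2021, n = 520 pairs), with quartiles of 757 and 3311 bp. The shortest gaps were the most frequent. Of the 520 pairs, 104 had a gap under 500 bp, against 57 in the next 500 bp and 36 in the last 500 bp before the limit. Within the first 500 bp, 34 pairs were under 100 bp apart. Near the limit the count was level, with 36 pairs just inside it and 38 in the 500 bp just outside. The widest gaps inside the limit were 4946, 4953 and 4980 bp, and the narrowest outside it were 5000, 5014 and 5016 bp. Joining all peaks under 500 bp apart into single regions, an alternative added after the data were seen, gave 101 joined regions with a median width of 2506 bp, and 374 groups were left, since 81 groups (17.8%) had no wider gap.

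**Figure D1:**
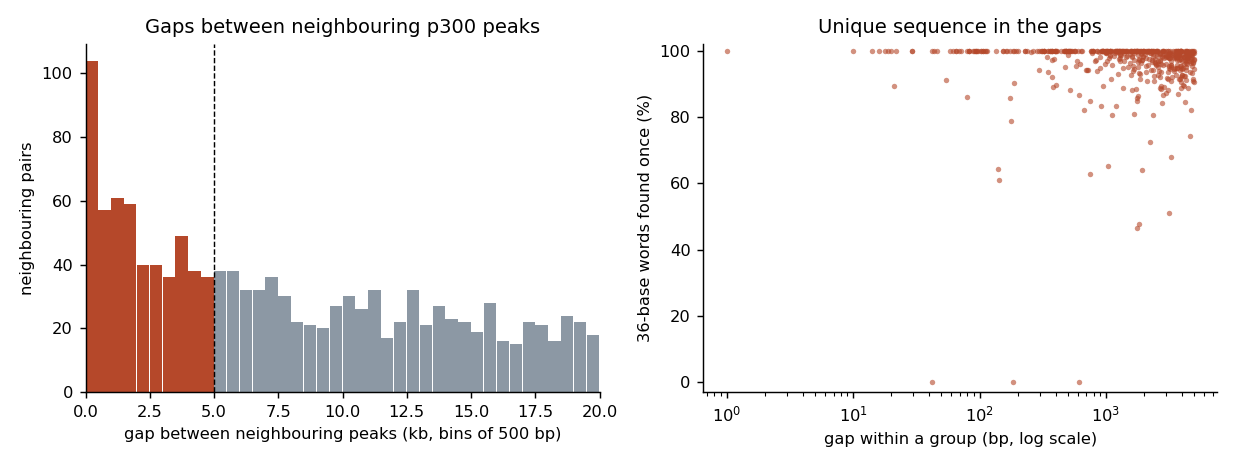
Left, the number of neighbouring pairs of p300 peaks by the gap between them in bins of 500 bp up to 20 kb, with pairs inside the 5 kb limit (dashed line) in red and wider pairs in grey. The first bin holds 104 pairs and the bins on either side of the limit 36 and 38. Right, each of the 520 gaps by its length on a log axis and by the percent of overlapping 36-base words with a single occurrence in the genome, with 3 gaps at 0 and most near 100.

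The authors kept only reads that mapped to a single place, and the sequence of the gaps was searched for repeated words. The part of repeated sequence in the gaps was not tested beyond these counts. Of the 36-base words overlapping the gaps, 96.1% had a single occurrence in the genome on either strand, against 83.3% of words sampled over the whole assembly and 98.5% of words in the grouped peaks. In the 104 gaps under 500 bp the share was 97.1%, and 84 of these gaps had no repeated word. Under 50% of the words were unique in 5 of the 520 gaps, and 3 gaps held no unique word. These 3 were a gap of 42 bp in Cntfr, which encodes the receptor for ciliary neurotrophic factor, a gap of 185 bp in the kinase gene Wnk2 and a gap of 609 bp in Disc1, a gene for a scaffold protein of neurons. No gap contained unassembled bases. An annotated exon overlapped 30 of the gaps, and 20 of them held an exon of a protein-coding gene. The authors removed peaks at exons and near start sites, and whether a removed peak lay in any of these gaps was not tested.

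Neighbours seldom shared sequence. In 17 of the 520 pairs the peaks had at least 1 exact 20-base word in common, in either orientation. The pair in Wnk2 shared 159 such words, the Cntfr pair 22. The longest stretch that both Wnk2 peaks held was 103 bases long and is shown because it was present in both on the same strand, on either side of a gap with no unique sequence.
Wnk2 pair, peak 1625 (chr13:49149692-49149794): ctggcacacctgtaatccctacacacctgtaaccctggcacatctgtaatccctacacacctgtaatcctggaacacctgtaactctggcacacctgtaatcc
The second copy lay at chr13:49150168-49150270. Of the 36-base words in the Wnk2 peaks, 60.2% and 60.5% were unique, well under the 98.5% of all grouped peaks. For pairs with a gap under 500 bp the share with a common word was 6.73% (exact 95% interval 2.75 to 13.4%, n = 104), for gaps of 500 to 5000 bp it was 2.40% (1.16 to 4.38%, n = 416), and for neighbours 10 to 50 kb apart it was 3.16% (2.29 to 4.25%, n = 1329). These intervals overlap.

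The groups spanned a median of 4571 bp (4350 to 4790, n = 455), from 1504 to 20593 bp, and 2249.75 kb in all. Peaks covered a median of 54.6% of a group. The longest group, of 5 peaks (chr3:88023081-88043673), lay between Mef2d, which encodes a transcription factor of neurons and muscle, and Rhbg, an ammonium transporter gene. It began 47.1 kb past the 3′ end of Mef2d and stopped 3.12 kb short of Rhbg. Its gaps were 4921, 505, 2279 and 4707 bp, so that 2 of the 4 came close to the limit. A group of 5 peaks over 18399 bp (chr8:122923210-122941608) lay 71.2 kb upstream of Gse1, which encodes a nuclear protein. The third, over 16305 bp (chr11:77764079-77780383), was inside Sez6, a gene for a membrane protein of neurons. The fourth, over 14078 bp (chr15:82752125-82766202), started 9.56 kb upstream of Tcf20, which encodes a nuclear transcriptional co-regulator. All 4 of these groups had gaps of unequal length and held peaks of unequal width, as the map of the groups shows.

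The middle 150 bases of the widest peak in each of the 4 groups of 5 are shown as examples of the largest groups, with matches to the motifs described below in capitals.
Mef2d group, peak 3950 (chr3:88036362-88036511): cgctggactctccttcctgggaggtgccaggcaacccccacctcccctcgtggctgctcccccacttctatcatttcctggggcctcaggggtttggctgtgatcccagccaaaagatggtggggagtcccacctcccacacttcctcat
Gse1 group, peak 6131 (chr8:122940728-122940877): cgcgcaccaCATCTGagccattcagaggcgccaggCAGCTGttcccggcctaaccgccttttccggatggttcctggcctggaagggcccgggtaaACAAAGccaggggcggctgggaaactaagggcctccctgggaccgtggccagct
Sez6 group, peak 893 (chr11:77779226-77779375): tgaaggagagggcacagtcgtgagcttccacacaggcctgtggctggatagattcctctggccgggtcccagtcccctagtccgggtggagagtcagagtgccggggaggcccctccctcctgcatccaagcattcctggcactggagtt
Tcf20 group, peak 2255 (chr15:82760242-82760391): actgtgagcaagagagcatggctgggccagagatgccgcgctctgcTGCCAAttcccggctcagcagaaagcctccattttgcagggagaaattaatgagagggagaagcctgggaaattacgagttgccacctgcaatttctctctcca
These windows held 0, 3, 0 and 1 matches. In the Gse1 peak the matches were a Neurod/Neurog E-box, a CAGCTG E-box and a Sox site. In the Tcf20 peak the match was a single Nfi site.

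**Figure D2:**
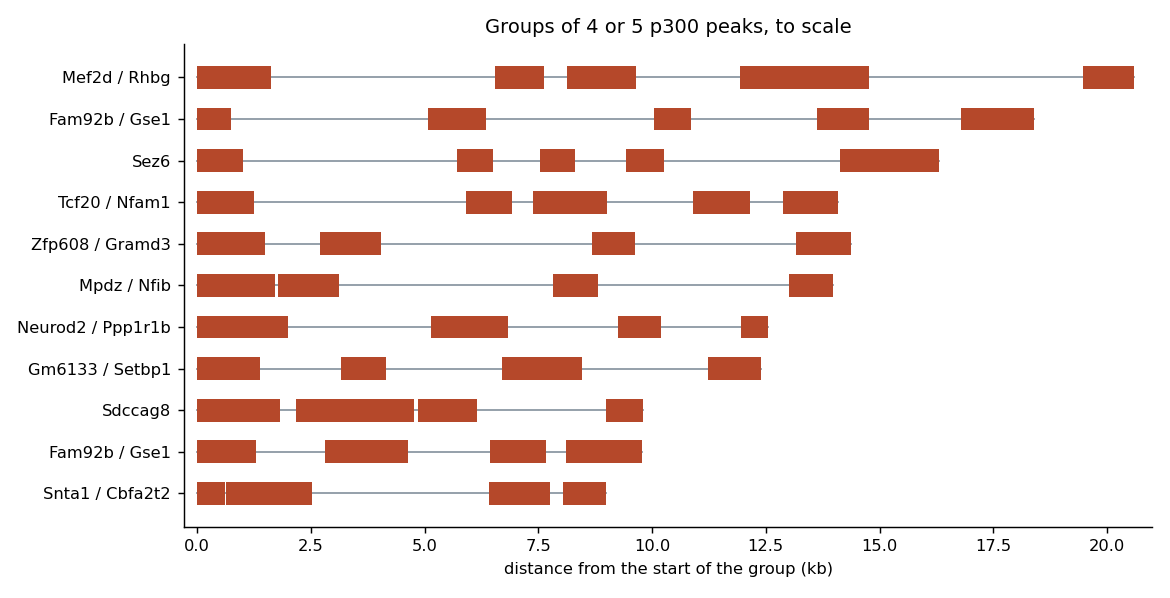
Groups of 4 or 5 p300 peaks (11 of 12) drawn to scale, with each red block a peak and the horizontal axis the distance in kb from the start of the group. Rows are named by the gene that holds the group or, where none does, by the coding genes on its left and right. Groups held only by the model Gm20388 are also named by the genes on their left and right. The longest group spans 20593 bp.

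The groups of 4 peaks lay beside or inside genes of several kinds. The group of 4 beside Neurod2 is described with that gene below. A group of 9791 bp was in intron 16 of Sdccag8, a centrosomal gene. Its second peak was 2598 bp wide and the gap after it only 91 bp. A further group lay 7.83 kb upstream of Cbfa2t2, a co-repressor gene, and its first gap was 19 bp. Between Mpdz and Nfib, which encodes a nuclear factor of glia and deep-layer neurons, a group of 4 lay 123 kb from Mpdz and 711 kb from Nfib. The stretch between Fam92b and Gse1 also held a group of 4, 123 kb from Fam92b and 179 kb from Gse1. On chromosome 18, groups of 4 lay 141 kb upstream of Zfp608, a zinc finger gene, and 249.7 kb downstream of Setbp1, whose product binds the SET protein. The latter group was closer to the gene model Gm6133, 137.5 kb away on its other side.

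Several stretches held more than 1 group. Between Fam92b and Gse1 there were 6 groups with 17 peaks, between C130026L21Rik and Cryba4, a crystallin gene, 7 groups with 15 peaks, and between Zfp608 and Gramd3 5 groups with 12 peaks. For Gse1, 17 of the 30 peaks in its body and on either side up to the next coding genes were grouped (56.7%). Gm9966 had 5 groups, and Sdccag8 had 4, with 10 of 14 peaks grouped. These genes head the order by number of groups, together with Gm20388, a model of 4.43 Mb on chromosome 8 that covers many other genes and held 8 groups. They were named for their many groups, so high counts of grouped peaks follow from the choice. Over all peaks 14.7% were grouped. Some groups stood close to each other. In 59 of 455 (13.0%, exact 95% interval 10.02 to 16.4%) another group lay within 50 kb, while the median distance to the next group was 881 kb. A peak outside the group lay within 50 kb of 58.5% of groups (53.8 to 63.0%). Among the other peaks 42.0% (40.7 to 43.3%) had a peak within 50 kb, a share that contains gaps of 5 kb or more only.

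Of the 455 groups, 229 lay between annotated genes and 202 inside a protein-coding gene (44.4%, exact 95% interval 39.8 to 49.1%), 6 of these in Gm20388 alone. A further 22 lay in or at noncoding genes only, and 2 crossed the end of a coding gene. Within coding genes, 176 groups fitted in a single intron of the reference transcript, with a median intron length of 59.7 kb, and 56 of these were in the first intron. Of the 251 groups with no coding gene around them, 109 (43.4%) were over 100 kb from both flanking coding genes and 11 over 500 kb from both. In all, 179 coding genes held a group and 20 held more than 1. Odz4, a teneurin gene for cell adhesion, held 4 groups with 9 peaks, and Pbx3, which encodes a TALE homeodomain factor, held 3 groups with 6 peaks, all in intron 2. Counted by peaks, 44.8% of grouped peaks were in a coding gene (41.7 to 48.0%), against 42.4% of the other peaks (41.2 to 43.7%). Between genes lay 51.2% of grouped peaks (48.0 to 54.4%) and 54.7% of the others (53.4 to 56.0%). The intervals overlap for both locations.

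Neurod2, a bHLH factor of differentiating neurons, had a group on each side. A group of 3 (chr11:98178303-98183024) ended 3.70 kb past the 3′ end of the gene and a group of 4 (chr11:98194368-98206913) began 3.41 kb upstream of its start. The group of 4 was closer still to Ppp1r1b, the coding gene on its other side, ending 2.80 kb upstream of it. The start of Ppp1r1b was the nearest to the middle of that group, 9.08 kb away. The name Neurod2 on the sequences below gives their place only. Of 22350 coding genes, Neurod2 and C130026L21Rik alone had groups within 50 kb on both sides with no other coding gene between. The middle 120 bases of all 7 peaks are shown, since these groups stood closest on both sides of a cortical transcription factor gene, with motif matches in capitals and the peak numbers of the deposited list.
Neurod2 peak 997 (chr11:98178694-98178813): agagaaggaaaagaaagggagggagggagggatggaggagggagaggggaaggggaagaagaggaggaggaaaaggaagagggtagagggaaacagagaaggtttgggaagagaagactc
Neurod2 peak 998 (chr11:98180667-98180786): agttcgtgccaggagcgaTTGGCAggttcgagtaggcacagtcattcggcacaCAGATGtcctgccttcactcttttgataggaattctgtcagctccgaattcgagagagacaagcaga
Neurod2 peak 999 (chr11:98182220-98182339): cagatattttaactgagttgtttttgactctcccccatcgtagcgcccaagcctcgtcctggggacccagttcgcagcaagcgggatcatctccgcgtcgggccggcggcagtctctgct
Neurod2 peak 1000 (chr11:98195306-98195425): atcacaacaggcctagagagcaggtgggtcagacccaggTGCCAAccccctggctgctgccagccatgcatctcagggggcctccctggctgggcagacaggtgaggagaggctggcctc
Neurod2 peak 1001 (chr11:98200292-98200411): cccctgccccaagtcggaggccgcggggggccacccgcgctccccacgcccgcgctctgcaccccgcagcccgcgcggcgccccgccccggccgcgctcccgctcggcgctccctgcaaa
Neurod2 peak 1002 (chr11:98204027-98204146): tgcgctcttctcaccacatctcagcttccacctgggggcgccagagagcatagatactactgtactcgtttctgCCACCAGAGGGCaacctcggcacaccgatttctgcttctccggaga
Neurod2 peak 1003 (chr11:98206556-98206675): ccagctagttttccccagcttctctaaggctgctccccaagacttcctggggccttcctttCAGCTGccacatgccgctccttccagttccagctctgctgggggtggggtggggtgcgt
The group of 4 had GC contents of 60.4, 61.1, 56.7 and 49.6% from its first to its last peak. The capitals mark a single Nfi site and an E-box of the Neurod/Neurog type in peak 998, a single Nfi site in peak 1000, a CTCF core in peak 1002 and a CAGCTG E-box in peak 1003. Peaks 997, 999 and 1001 had no match in this window.

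Neurog2, the proneural bHLH factor of cortical progenitors, had 3 groups with 8 of the 9 peaks for which it was the next coding gene on either side. The nearest group, of 3 peaks (chr3:127342438-127355811), began 3.89 kb past the 3′ end of Neurog2, and its peaks were 1726, 1606 and 1522 bp wide. The others, of 3 and 2 peaks, lay 62.03 and 109.5 kb away inside Alpk1, a kinase gene for which all 8 peaks in its body or next to it were grouped. Insm1, a zinc finger factor of intermediate progenitors, had 3 groups of 2, all inside other coding genes. Those at 61.8 and 98.9 kb on its 3′ side lay in Ralgapa2, and the pair at 158 kb upstream lay in 4930529M08Rik. Sox2, which maintains neural progenitors, had a group of 3 that began 6.39 kb past its 3′ end and contained a peak of 3977 bp, and a pair 140 kb upstream. Within 200 kb of the start site, 10 of 11 peaks around Neurog2 were grouped, 7 of 10 around Neurod2, 6 of 16 around Insm1, 6 of 9 around Pbx3 and 5 of 8 around Sox2. Over all peaks 14.7% were grouped. These genes were named for having the most grouped peaks in their lists, so high counts follow from the choice. Position beside a gene does not show that a peak acts on it.

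**Figure D3:**
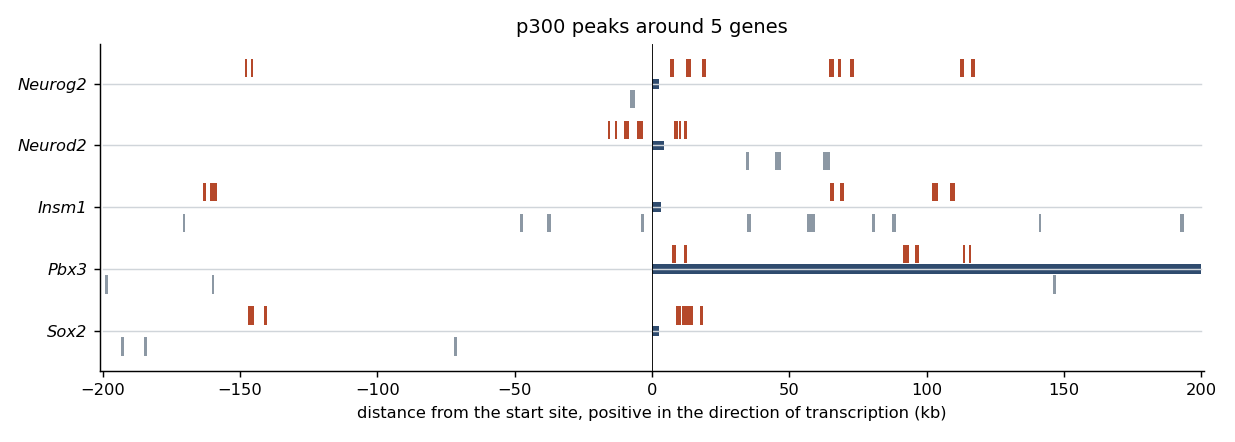
Grouped peaks (red, above each line) and other peaks (grey, below it) within 200 kb of the start sites of Neurog2, Neurod2, Insm1, Pbx3 and Sox2, with the gene body in blue and distance in kb, positive in the direction of transcription. Red blocks stand on both sides of Neurod2, the farthest centred 15.7 kb from its start, and 10 of the 11 peaks around Neurog2 are red. The genes were chosen for their many grouped peaks.

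Genes of cortical development were counted by lists, taking a group as belonging to the coding gene that holds it and to the coding genes on its left and right. Of 17 intermediate progenitor and proneural factors 7 had a group, and of 34 cortical progenitor factors 12 did. The former were Neurog2, Neurod2, Insm1, Btg2, Eomes, Neurod6 and Tcf4, with 8, 7, 6, 3, 2, 2 and 2 grouped peaks. In the progenitor list Pbx3 had 8 grouped peaks, Sox2 5, and Meis1, Id4 and Pax6 4 each. Of 48 cortical neuron identity factors 22 had a group, led by Zfp608 with 18 grouped peaks and Gse1 with 17, then Nfib and Tle3, a Groucho co-repressor gene, with 8 each, and Auts2, Etv1 and Sox4 with 6 each. Zfp608, Gse1, Mn1, Auts2, Tle3, Nfib, Sox4 and Sox11 are on this list and were picked out by the study for their many peaks in these same data, so the list is not independent of the peaks. The share of coding genes with a group went up with the number of peaks in or next to the gene, from 17.8% of 2092 genes with 2 to 4 peaks to 45.0% of 696 with 5 to 9, 73.7% of 209 with 10 to 19 and 92.3% of 26 with 20 or more. Among genes with a peak, groups stood at 38.7% of progenitor factors (12 of 31), 43.8% of proneural factors (7 of 16) and 47.8% of neuron identity factors (22 of 46), against 15.4% of all coding genes with a peak (864 of 5604). The median number of peaks at these genes was 4, 3.5 and 7 in the lists and 2 over all coding genes with a peak, so the shares are not set at equal numbers of peaks. The 47.8% of neuron identity factors was near the 45.0% of all coding genes with 5 to 9 peaks. The 38.7% and 43.8% of the other lists were above the 17.8% of genes with 2 to 4 peaks. Single genes of these 2 lists had up to 16 and 18 peaks. For Auts2 6 of 46 peaks were grouped (13.0%), near the 14.7% grouped over all peaks.

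Among genes of guidance and adhesion, 19 of 43 with a peak had a group (44.2%), at a median of 7 peaks a gene. Over all coding genes with 5 to 9 peaks the share was 45.0%, so the list did not stand out from genes with similar numbers of peaks. Pcdh9, a protocadherin gene, had 3 groups with 6 grouped peaks, Slit1, which encodes a repulsive guidance ligand, 2 groups with 5 of its 7 peaks, and Robo2, a Slit receptor gene, 2 groups with 4 of 21. Of 31 signalling genes with a peak, 7 had a group (22.6%), each of them a single group, as in Bmpr1b and Ptch1, receptors for BMP and hedgehog ligands. Their median was 3 peaks a gene, and 17.8% of all coding genes with 2 to 4 peaks had a group. Of 21 cytoskeleton and migration genes 18 were matched by name and 13 had a peak, and of these the microtubule gene Dcx and its relative Dclk1 had a pair each. Map1b, Map2 and Tenm4 were not matched. Tenm4 is annotated here as Odz4, whose 4 groups are given above and are not in this count. Of 39 Hox genes, which pattern the hindbrain and spinal cord, 4 had a peak and 0 a group. None of the 4 had more than 1 peak. Over all coding genes with 1 peak, 1 of 2581 had a group, so the number of peaks left almost no room for one. Of 48 ribosomal protein genes, 10 had a peak, at a median of 1 peak a gene, and 1, Rps29, had a pair. These counts describe 1 library, and lists share neighbouring genes and hence groups.

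Grouped peaks were wider than the other peaks. Their median width was 1084 bp (95% interval from order statistics 1056 to 1115, n = 975), against 1007 bp (999 to 1016, n = 5654). The 665 widest of all peaks made up 13.3% of the grouped peaks (exact 95% interval 11.3 to 15.6%) and 9.46% of the other peaks (8.71 to 10.3%). The widest peak of the list, 5243 bp, was a grouped peak with a neighbour 16 bp away. Width and gap share an edge, since a peak that extends further comes nearer to its neighbour, and the part of width in the choice of members was not tested. Within pairs, the ratio of the wider to the narrower peak had a median of 1.4 for gaps under 500 bp (1.27 to 1.45) and 1.29 for gaps of 500 to 5000 bp (1.26 to 1.35). It was 1.35 for neighbours 5 to 10 kb apart (1.28 to 1.42) and 1.3 for those 10 to 50 kb apart (1.28 to 1.33), and the intervals of all 4 ranges of gap overlapped.

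Grouped peaks had a mean GC content of 46.5 ± 6.89% (SD, n = 975 peaks) and the other peaks 45.1 ± 6.43% (SD, n = 5654). The distributions overlapped over nearly their whole range. Over 50% GC were 33.5% of grouped peaks and 23.5% of the others. The mean over the peaks of a group was 46.0 ± 6.41% (SD) in 406 groups of 2, 47.9 ± 6.43% in 37 groups of 3 and 51.6 ± 5.72% in 12 groups of 4 or 5. The groups of 5 lay at 52.9% (Mef2d), 54.3% (Sez6), 54.6% (Tcf20) and 58.1% (Gse1). Groups of 4 were more spread, with 42.0% between Mpdz and Nfib and 56.9% beside Neurod2. The distance to a coding start site moved along with group size, with a median of 80.7 kb for groups of 2, 59.1 kb for groups of 3 and 52.8 kb for groups of 4 or 5, and its part in the GC content was not tested. Over all peaks the distance was 78.6 kb (70.3 to 83.0) for grouped peaks and 84.1 kb (80.6 to 87.6) for the others. The value for grouped peaks was 50.3 kb when the start of every coding transcript was counted and 41.3 kb with the starts of all annotated genes.

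**Figure D4:**
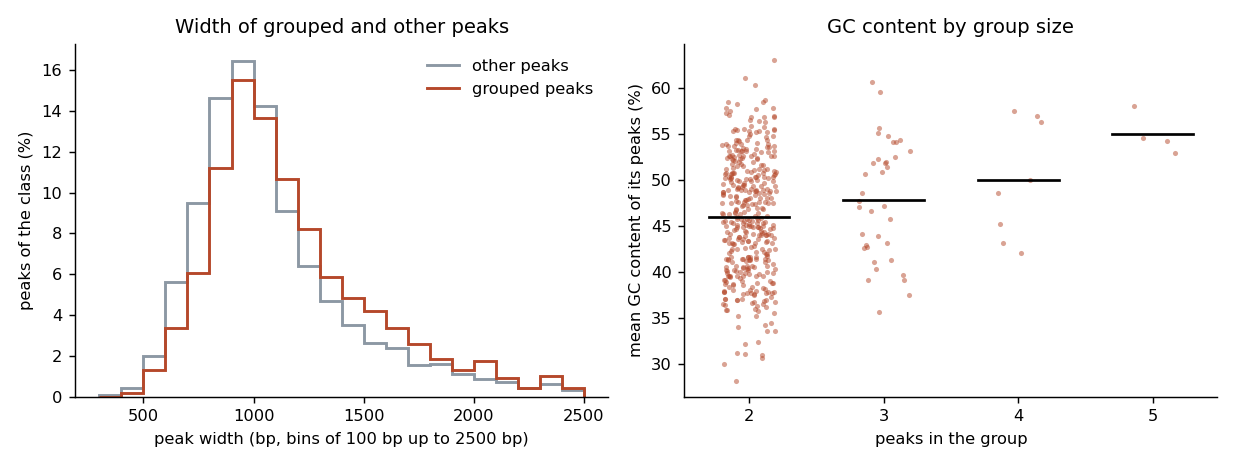
Left, the distribution of peak widths in bins of 100 bp up to 2500 bp as percent of the 975 grouped peaks (red) and of the 5654 other peaks (grey), the red line lying to the right of the grey (medians 1084 and 1007 bp). Right, the mean GC content in percent of the peaks of each group by the number of peaks in it, with horizontal position within a column random and a black line at the mean of the groups, which was 46.0% for groups of 2.

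Motifs were searched on both strands in the middle 500 bp of each peak, and the share of grouped peaks with a match was set beside that of the other peaks in windows of the same length. CATCTG, the E-box bound by Neurod and Neurog factors, was in 57.2% of grouped peaks (exact 95% interval 54.1 to 60.4%) and 57.4% of the others (56.1 to 58.7%). The single Nfi site TTGGCA was in 41.8% and 42.4%, the Sox sites ACAAAG in 41.3% and 40.7% and CATTGT in 27.0% and 27.2%. For these 4 motifs the classes differed by less than 1 percentage point. CAGCTG, the other E-box, was in 37.1% of grouped peaks (34.1 to 40.2%) and 40.1% of the others (38.8 to 41.4%), and the Lhx/Lmx site TAATTA in 28.5% (25.7 to 31.5%) and 31.8% (30.55 to 32.997%). For these the intervals also overlapped. Among grouped peaks TAATTA was in 35.1% of the 205 with a gap under 500 bp (28.6 to 42.1%) and in 26.8% of the 770 without (23.7 to 30.03%). The AP-1 site TGANTCA was in 14.1% of grouped and 15.1% of other peaks, and the Pou octamer ATGCAAAT in 7.28% and 7.66%. The T-box site AGGTGTGA was in 2.15% and 3.18%, the CTCF core in 4.31% and 5.52% and the Rfx dimer in 2.56% and 2.12%. The Nfi dimer, searched only as TGGC and GCCA with 6 bases between them, was in 1.54% and 1.57%. Other spacings were not searched, so these shares do not cover Nfi dimers of another spacing. The intervals of grouped and other peaks overlapped for each of the 12 motifs. A match of this kind describes the sequence and does not show a bound site, and the single Nfi site and the Nfi dimer can overlap.

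**Figure D5:**
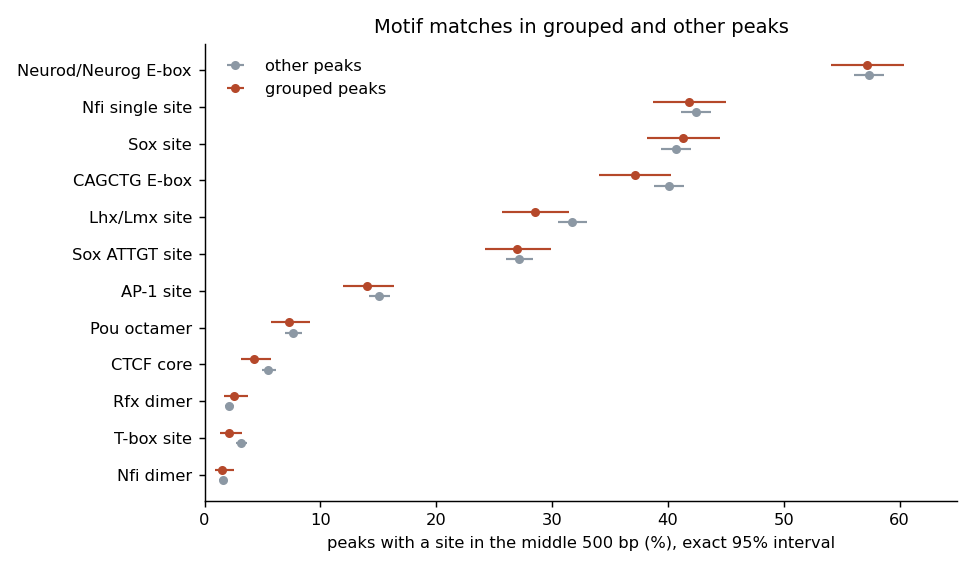
The percent of grouped peaks (red) and other peaks (grey) with at least 1 match to each of 12 motifs in the middle 500 bp, with exact 95% intervals as horizontal bars. For every motif the bars of the classes overlap, from the Neurod/Neurog E-box at 57.2% and 57.4% down to the Nfi dimer at 1.54% and 1.57%. The Nfi dimer was searched only as TGGC and GCCA with 6 bases between them.

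Whether neighbours held the same motif was counted over pairs. Both peaks had a Neurod/Neurog E-box in 169 of 520 pairs within groups (32.5%, exact 95% interval 28.5 to 36.7%), and in 32.5% of 1625 neighbouring pairs 5 to 50 kb apart (30.2 to 34.8%). At least 1 of the peaks had it in 83.1% and 81.5%. The share of pairs with the E-box in both peaks was the same to 3 digits within groups and in the wider pairs. For TAATTA both peaks had a match in 11.3% of pairs within groups (8.75 to 14.4%) and 9.66% of the wider pairs (8.27 to 11.2%). In the 104 pairs with a gap under 500 bp that share was 18.3% (11.4 to 27.1%, 19 pairs), which is 1 of 12 motifs looked at and was not tested further. The peaks of these pairs also held the site more often singly, in 35.1% of them against 28.8% in the wider pairs. The difference in GC content between neighbours had a median of 2.64 percentage points within groups and 3.03 in pairs 5 to 50 kb apart.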

How the data were processed

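p300 ChIP-seq of 1 E14.5 dorsal cerebral wall sample was analysed from the peak list. The authors aligned reads to mm9 with ELAND, kept uniquely mapped reads, identified peaks with MACS 1.4 against input DNA, and removed peaks at exons, near start sites or suspected of non-unique mapping. The deposited values are the start and end of each of 6629 peaks, with no signal, score or read count. By GENCODE vM1, midpoints of 22 peaks lay within 2.5 kb of a coding start, 1 of them grouped, and 16 grouped peaks overlapped an exon.

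Peaks with a gap under 5000 bp were joined into groups. Positions were computed on NCBIM37, the assembly of mm9, with 22350 protein-coding genes of GENCODE vM1, each with the start of a single reference transcript. Uniqueness was the share of overlapping 36-base words with a single exact occurrence on either strand of the genome, and the whole-assembly value rests on 1 word in 20000. Motifs were exact matches to letter patterns, some of them with free positions. Python 3.11.15, numpy 2.4.6, pandas 2.3.3, scipy 1.17.1, numba 0.67.0, pysam 0.24.0 and matplotlib 3.10.9 were used. Intervals are Clopper-Pearson for shares of peaks, pairs or groups, order statistics for medians and a normal approximation for mean GC content. Grouping, word and motif searches were tested on simulated data. No comparison carries a test, as there was 1 library.

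The groups described are those of 4 or more peaks (only 4 groups held 5), the 3 with the smallest gap, the 3 with the longest span, the 10 coding genes with the most groups, and up to 5 genes of each list by grouped peaks. Members, motifs and gene lists were chosen with earlier results of these data known. Some genes that this rule covers are not reported here.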

Additional observations from a re-analysis of the deposited data

How the results depend on the processing

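The counts followed the limit on the gap. A limit of 2500 bp left 616 grouped peaks in 295 groups with a median span of 3412 bp, and a limit of 10000 bp gave 1471 grouped peaks with a median span of 6835 bp. Measured between midpoints, the median span was 4082.5 bp. With peaks of less than the median width left out, 379 peaks stayed in 182 groups and the span was 4970.5 bp. Joining peaks under 500 bp apart first, which was added after the data were seen, gave 4967 bp. The median distance to a start site fell to 50.3 kb with the start of every transcript of coding genes and to 41.3 kb with all annotated genes. Motif shares depended on the length searched, by construction. Over whole peaks the Neurod/Neurog E-box was in 76.8% and the Lhx/Lmx site in 44.0% of grouped peaks, and both peaks of 60.2% of pairs held the E-box. In the middle 200 bp these were 34.5%, 15.4% and 12.9%. Median width, mean GC content and the share of groups inside a coding gene stayed within the interval of the reported value under each alternative run. The number of flanking coding genes (867 gene identifiers) stayed within 1.5 times. The share of unique words was 96.1% in gaps of at least 500 bp and 96.2% with the limit of 2500 bp. Both are subsets of the same gaps, so they are no independent check of the reported 96.1%.

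With 1 library there was no replicate to leave out. No paired analysis was possible because the result comes from no test. The list has no read counts, so a peak split in the list cannot be told apart from separate binding sites, and the precision of a single gap is unknown.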

Other observations

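Groups were found on each chromosome that had peaks. Untested, the share of peaks that were grouped ran from 7.89% on chromosome X (6 of 76 peaks), 8.92% on chromosome 16 (24 of 269) and 9.77% on chromosome 10 (26 of 266) to 18.9% on chromosome 18 (46 of 244). Chromosome 4 had the most grouped peaks, 86 of 512.

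None of the 10 elements that the study took into reporter assays lay on a grouped peak. Over all peaks 14.7% were grouped, and 10 elements are too few to tell their share from that one. The gap from the peak of each element to its nearest neighbouring peak ran from 5.93 to 129.97 kb, with a median of 34.8 kb.

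Among genes outside the lists, Foxo6, a forkhead factor of the brain, stood beside or around 3 groups with 8 of 12 peaks. Chosen after its values were seen, it had groups 13.5 and 3.73 kb past its 3′ end and a group of 3 in the first intron, where the mean GC content was 59.5%.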
